A study of Homo sapiens with 27 samples.

Results

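The genes described here were 10 feedback inhibitors of the ERK mitogen-activated protein kinase pathway: the phosphatases DUSP1, DUSP4, DUSP5 and DUSP6, the Sprouty genes SPRY1, SPRY2 and SPRY4, the SPRED genes SPRED1 and SPRED2, and the EGF receptor inhibitor ERRFI1. They were chosen by name, with earlier results of these data known. Every probe set that the array annotation gave 1 of these symbols was taken, which made 21 of 54675 probe sets. Expression was measured on 27 Affymetrix U133 Plus 2.0 arrays of 3 human cancer cell lines: PC-3 from a prostate cancer, SK-OV-3 from an ovarian cancer and WM793B from a melanoma. Each line gave 3 arrays of control cells kept at 21% oxygen for 72 h, 3 arrays of chronic hypoxia at 1% oxygen for 72 h, and 3 arrays of cycling hypoxia. In cycling hypoxia, periods of 4 h and 12 h at 1% oxygen were each followed by 4 h at 21% oxygen over the same 72 h, so these cells were collected after reoxygenation. Each line came from a single tumour. PC-3 cells grew in RPMI and SK-OV-3 cells in McCoy's medium, both with the same share of fetal bovine serum, while WM793B cells grew in Tu medium with less serum and with insulin and calcium chloride. Cell line and medium therefore cannot be told apart. The question was how these genes responded to chronic and to cycling hypoxia in each line.

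ERK is the last kinase of a cascade that runs from growth factor receptors through RAS, RAF and MEK, and it switches on genes of growth and division. Among the genes it induces are its own inhibitors, so that transcripts of this family often rise and fall with pathway activity. The DUSP proteins remove the activating phosphates from MAP kinases, DUSP5 in the nucleus and DUSP6 in the cytoplasm with a preference for ERK, DUSP1 and DUSP4 in the nucleus with a wider choice of kinases. Sprouty and SPRED proteins act further up, between the receptors and RAF, and ERRFI1, also called MIG6, binds and inhibits the EGF receptor itself.

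The promoters of 3 members are shown because DUSP1 had the largest rise of the family and DUSP6 and SPRY4 were called in SK-OV-3 cells against control under cycling hypoxia and not under chronic hypoxia. RefSeq promoter windows (build GRCh38.p14, from 250 bases before to 50 after a gene's start, 300 bases) were at hand for 8 of the 10 members, with 12 windows in all. Capitals mark matches to 7 motifs, searched on both strands apart from the TATA box, which was searched on the gene's strand: the cAMP response element TGACGTCA, the AP-1 site TGACTCA, the ETS core CCGGAA, the hypoxia response cores ACGTG and GCGTG, the TATA box TATAAA and the CArG box of serum response factor.
DUSP1, chr5:172771146-172771445, minus strand: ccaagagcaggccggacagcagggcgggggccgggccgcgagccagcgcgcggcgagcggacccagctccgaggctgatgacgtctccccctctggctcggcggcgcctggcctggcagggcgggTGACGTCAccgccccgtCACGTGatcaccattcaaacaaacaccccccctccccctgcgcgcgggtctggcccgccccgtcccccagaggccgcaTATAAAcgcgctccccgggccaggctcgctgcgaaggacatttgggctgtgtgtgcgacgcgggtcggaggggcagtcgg
DUSP6, chr12:89352452-89352751, minus strand: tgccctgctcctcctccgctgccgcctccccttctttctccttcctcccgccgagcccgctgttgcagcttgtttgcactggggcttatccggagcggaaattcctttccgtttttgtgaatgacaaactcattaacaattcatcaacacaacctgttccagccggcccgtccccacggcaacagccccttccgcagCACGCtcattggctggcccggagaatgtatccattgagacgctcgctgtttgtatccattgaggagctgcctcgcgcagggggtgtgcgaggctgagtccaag
SPRY4, chr5:142324198-142324497, minus strand: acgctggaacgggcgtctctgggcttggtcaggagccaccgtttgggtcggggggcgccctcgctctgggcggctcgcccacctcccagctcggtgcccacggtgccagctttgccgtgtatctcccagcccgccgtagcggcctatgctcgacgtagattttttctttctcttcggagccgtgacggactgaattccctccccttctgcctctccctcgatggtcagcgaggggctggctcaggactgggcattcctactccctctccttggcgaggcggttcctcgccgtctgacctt
The DUSP1 window held a TGACGTCA at -125 to -118 from the gene's start, 2 overlapping matches to ACGTG at -108 to -103 and a TATAAA at -30 to -25. Among 35114 windows of all genes, 1.85% held TGACGTCA, 21.4% ACGTG and 7.33% TATAAA, and TGACGTCA stood in 1 of the 12 windows of the family. The DUSP6 window held only GCGTG, at -53 to -49 on the opposite strand, which 36.5% of all windows held. None of the 7 motifs was found in the SPRY4 window. CCGGAA, present in 17.2% of all windows, stood in 1 window each of SPRY1 and SPRY2, and TGACTCA, present in 4.95%, in 1 window of SPRED2 that also held a TATAAA. The CArG box, present in 1.29%, was found in none of the 12. These matches describe the letters of the windows only.

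Values are log2 signals from GC-RMA, in which a difference of 1 is a doubling. A log2 signal of 5 serves below as a mark for dim signals. It is not a measured background and lies above the floor of the scale, 2.28. The number of arrays limits their precision. A signal compares groups for the same probe set and does not rank genes against each other, and it cannot separate fewer cells with a transcript from less transcript per cell. Replicate arrays correlated at 0.9935 to 0.9975 across probe sets. In WM793B chronic hypoxia, replicate 3 stood apart: 3.60% of the filtered probe sets lay at least 2-fold from the mean of the other arrays of its group, against 0.864% and 1.24% for replicates 1 and 2. The cell line labels were checked against markers. Of 6 epithelial markers, 6 exceeded 5 on every PC-3 array, 5 on every SK-OV-3 array (CLDN4 on 5 of 9) and none on every WM793B array. HOXB13 exceeded it in PC-3 cells only, PAX8 in SK-OV-3 cells only, and SOX10 and S100B in WM793B cells only. ERBB2 and MITF exceeded it on all 27 arrays and so did not tell the lines apart, though ERBB2 was highest in SK-OV-3 cells. Markers also went against the labels: MLANA, PMEL and TYR, the pigment genes of melanocytes, had medians at the floor in WM793B cells, KLK3 read 4.10 to 4.96 in PC-3 cells, MUC16 was at the floor in SK-OV-3 cells, and WT1, listed for ovarian carcinoma, read 2.76 to 4.29 there while it exceeded 5 on 8 of 9 PC-3 and 9 of 9 WM793B arrays. Of 4 leukocyte markers, PTPRC, CD3E and CD14 had medians at the floor in every line, and the highest reading was 3.93, of CD79A. All 5 measured hypoxia genes (NDRG1, ANKRD37, VEGFA, ADM and SLC2A1) rose under chronic hypoxia in each line, and 5, 4 and 3 of them rose under cycling hypoxia in PC-3, SK-OV-3 and WM793B cells.

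**Figure D1:**
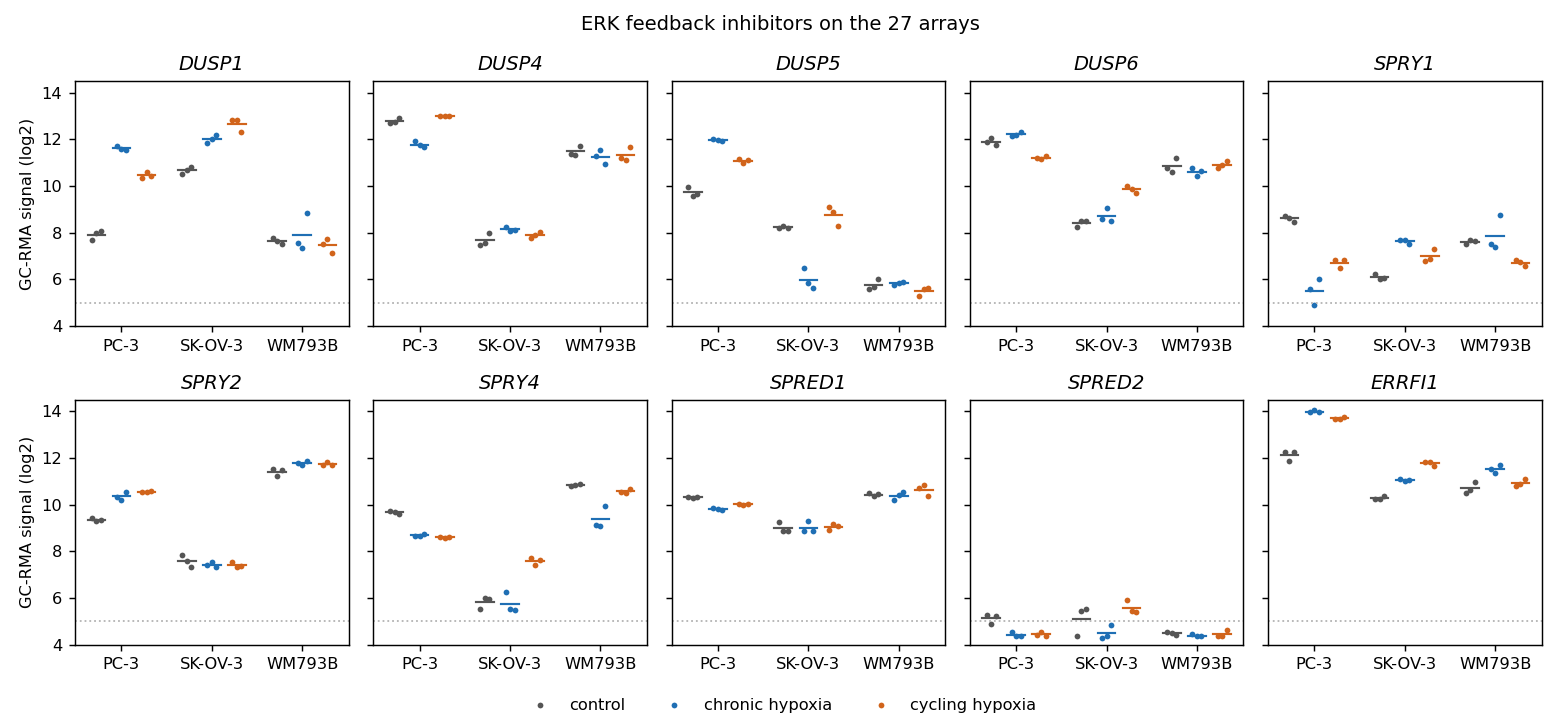
GC-RMA signal (log2) of the 10 genes, each by its brightest filtered probe set, on 27 arrays grouped by cell line and coloured by condition; points are arrays, bars are means of 3 and the dotted line marks a signal of 5. Both kinds of hypoxia raised DUSP1 and ERRFI1 in PC-3 and SK-OV-3 arrays, while SPRED2 gave the dimmest group means, 4.38 to 5.58.

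Of the 21 probe sets, 18 passed the study's variation filter (a signal 1.5-fold or more above or below its own median on 20% of arrays or more), and each gene kept at least 1. A gene was read by the brightest of those that passed. For 9 of the 10 genes every group mean of this probe set lay above 5. SPRED2 was the exception, with group means between 4.38 and 5.58, and its brighter probe set did not pass the filter.

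Levels of these inhibitors differed between the control cells of the 3 lines. DUSP4 was 34.6-fold lower in SK-OV-3 than in PC-3 control cells (-5.11, SE 0.16, log2 difference, limma adjusted p = 2.17e-18) and 14.0-fold lower than in WM793B. SPRY4 was 32.5-fold lower in SK-OV-3 than in WM793B cells (-5.02, SE 0.19, adjusted p = 8.12e-17) and 14.6-fold lower than in PC-3. DUSP6, the cytoplasmic ERK phosphatase, was 11.1-fold lower in SK-OV-3 than in PC-3 cells. The opposite held for DUSP1, which was 6.81-fold higher in SK-OV-3 than in PC-3 cells. DUSP5 was lowest in WM793B, 15.9-fold below PC-3, whereas SPRY2 was highest there, 4.14-fold above PC-3. In all, 9 of 10 members differed between SK-OV-3 and PC-3 controls (1 higher and 8 lower, with 80.5% of all 10021 genes called), 8 between WM793B and PC-3 (2 higher, 6 lower, 79.5% of all genes) and 10 between SK-OV-3 and WM793B (3 higher, 7 lower, 82.9% of all genes). These shares lie close to those of all genes. By the brightest probe sets, neighbouring lines did not differ beyond their spread for DUSP1 (WM793B and PC-3, -0.27, SE 0.25, adjusted p = 0.343), SPRED1 (WM793B and PC-3, 0.12, SE 0.13, adjusted p = 0.427) and SPRED2 (SK-OV-3 and PC-3, -0.02, SE 0.21, adjusted p = 0.959). Another SPRED1 probe set, 235074_at, was 1.84-fold higher in WM793B than in PC-3 cells (0.88, SE 0.10, adjusted p = 5.58e-08).

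In PC-3 cells, chronic hypoxia changed all 10 members at an adjusted p under 0.05: DUSP1, DUSP5, DUSP6, SPRY2 and ERRFI1 rose, and DUSP4, SPRY1, SPRY4, SPRED1 and SPRED2 fell. Of all genes tested, 24.9% rose and 38.8% fell. The median absolute log2 difference was 1.01 over the members and 0.47 over all genes. Under cycling hypoxia 4 rose, 5 fell (now with DUSP6) and DUSP4 was not called, beside 22.8% of all genes rising and 25.4% falling. Directly compared, cycling hypoxia was higher than chronic hypoxia for DUSP4, SPRY1 and SPRED1 and lower for DUSP1, DUSP5 and DUSP6, with 29.7% of all genes higher and 12.7% lower. These calls read the brightest probe set. Cycling hypoxia was instead lower by 204015_s_at of DUSP4 (-0.46, limma adjusted p = 0.000435) and 235074_at of SPRED1 (-0.17, adjusted p = 0.0467). The remaining probe set of each gene (226034_at and 244439_at) went with the brightest. By the brightest probe sets, the cycling hypoxia mean of DUSP1, DUSP5, SPRY1 and SPRED1 lay between those of chronic hypoxia and control. DUSP4 lay close to control, and DUSP6 lay below it.

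Among SK-OV-3 arrays, chronic hypoxia raised DUSP1, DUSP4, SPRY1 and ERRFI1 and lowered DUSP5, while 24.2% of all genes rose and 25.0% fell. Cycling hypoxia raised DUSP1, DUSP6, SPRY1, SPRY4 and ERRFI1 and lowered none, beside 19.2% of all genes rising and 15.8% falling. Cycling hypoxia exceeded chronic hypoxia for 6 members (DUSP1, DUSP5, DUSP6, SPRY4, SPRED2 and ERRFI1) and lay below it for SPRY1, with 18.4% of all genes higher and 15.8% lower. In this direct comparison the median log2 difference was 0.67 over the members and 0.00 over all genes.

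The fewest members were called in WM793B cells. Chronic hypoxia raised SPRY2 and ERRFI1 and lowered SPRY4 (17.8% of all genes rose and 23.9% fell). Cycling hypoxia raised SPRY2 alone (9.57% of all genes rose and 9.21% fell), and cycling differed from chronic hypoxia for SPRY4, which was higher, and ERRFI1, which was lower (9.70% of all genes higher and 6.43% lower). The median absolute log2 difference over the members was 0.25 under chronic hypoxia (0.36 over all genes), 0.22 under cycling hypoxia (0.24 over all genes) and 0.32 between the kinds of hypoxia (0.22 over all genes). Without chronic hypoxia replicate 3, SPRY1 and SPRY4 were also called under cycling hypoxia, 3 members in all, and without any other array the count was 0.

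**Figure D2:**
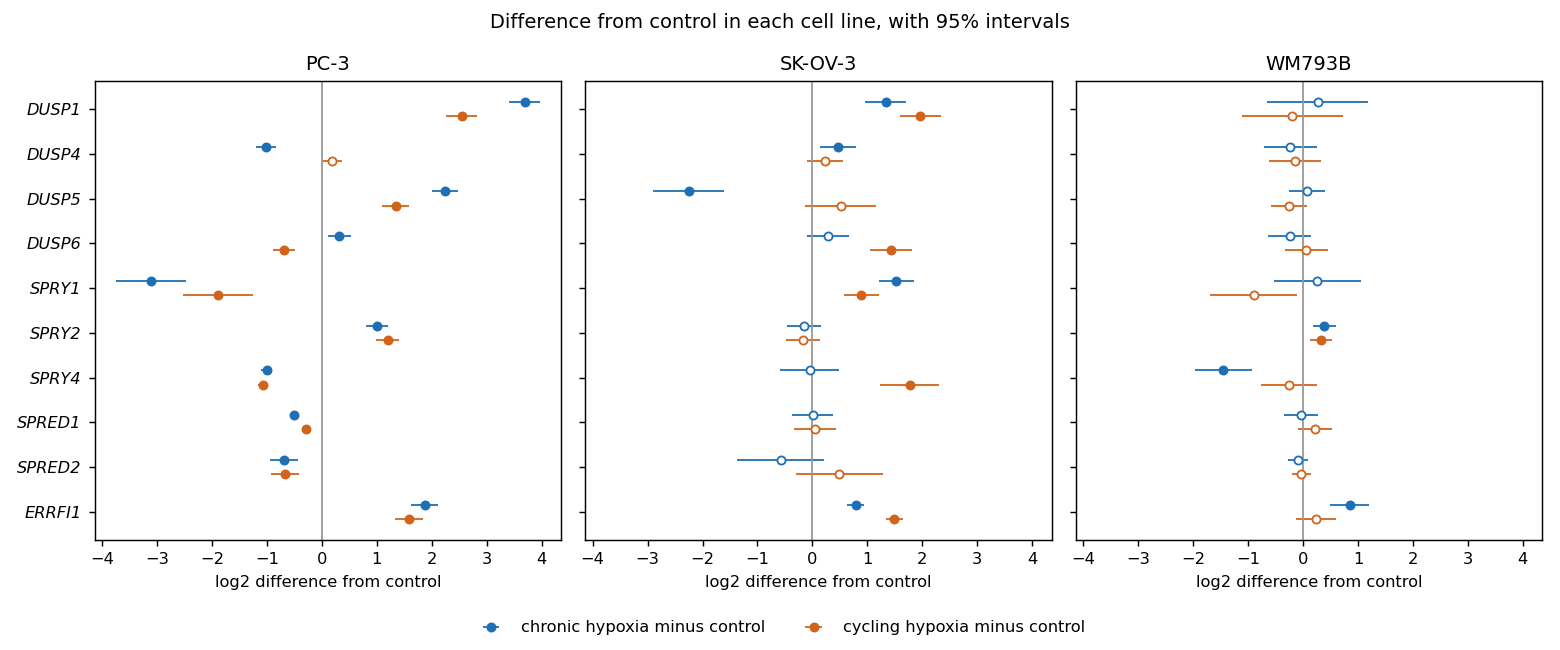
Log2 difference of chronic and of cycling hypoxia from control (x axis) for each gene in each cell line, with 95% intervals from limma; filled points passed an adjusted p under 0.05. PC-3 points spread from -3.11 for SPRY1 to 3.69 for DUSP1, both under chronic hypoxia, and most WM793B points are open and near 0.

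DUSP1, an immediate early phosphatase of ERK, JNK and p38, showed the largest rise of the family. PC-3 control arrays read 7.69, 8.00 and 8.06, chronic hypoxia arrays 11.73, 11.57 and 11.53, and cycling hypoxia arrays 10.33, 10.62 and 10.45. The 3 groups did not overlap, with chronic hypoxia highest. The rise was 12.9-fold under chronic hypoxia (3.69, SE 0.12, log2, adjusted p = 8.46e-07) and 5.84-fold under cycling hypoxia (2.55, SE 0.12, adjusted p = 1.18e-05). In SK-OV-3 cells the order of the 2 kinds of hypoxia was the reverse: control arrays read 10.53, 10.71 and 10.83, chronic hypoxia arrays 11.86, 12.03 and 12.17, and cycling hypoxia arrays 12.82, 12.81 and 12.33. DUSP1 rose 2.52-fold under chronic and 3.90-fold under cycling hypoxia there, and the step between them was 0.63 (SE 0.16, adjusted p = 0.0216), a call that held in 10 of 18 alternative settings (adjusted p up to 0.0731). WM793B control arrays read 7.79, 7.66 and 7.50, chronic hypoxia arrays 7.55, 7.33 and 8.86, and cycling hypoxia arrays 7.53, 7.71 and 7.12. The groups overlapped, and the high array is replicate 3, without which the difference of chronic hypoxia from control was -0.21 (SE 0.19) in place of 0.26 (SE 0.39), neither called. A dimmer probe set, 201044_x_at, rose by 3.35 and 1.95 in PC-3 and by 1.02 and 2.12 in SK-OV-3 cells under chronic and cycling hypoxia.

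DUSP5, a nuclear phosphatase of ERK, went opposite ways in the lines under chronic hypoxia. In PC-3 cells it rose from 9.98, 9.57 and 9.68 in control to 12.02, 11.97 and 11.95 in chronic hypoxia, a 4.71-fold rise (2.24, SE 0.10, adjusted p = 2.75e-06). Cycling hypoxia arrays, at 11.14, 11.00 and 11.11, lay between the other groups (1.34 above control, SE 0.10). In SK-OV-3 cells it fell from 8.21, 8.30 and 8.19 in control to 6.50, 5.85 and 5.61 in chronic hypoxia, a 4.76-fold fall (-2.25, SE 0.27, adjusted p = 0.000595). Cycling hypoxia arrays of this line read 9.08, 8.89 and 8.27. They overlapped control (0.51, SE 0.27, adjusted p = 0.208) and lay 6.80-fold above chronic hypoxia (2.76, SE 0.27, adjusted p = 0.000567), the largest difference between the kinds of hypoxia among the members. WM793B arrays read between 5.28 and 6.01 in all 3 conditions, and no comparison was called. DUSP5 is represented by a single probe set.

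DUSP6, the cytoplasmic phosphatase specific for ERK, also parted PC-3 from SK-OV-3 cells, here under cycling hypoxia. PC-3 arrays read 11.88, 12.07 and 11.76 in control, 12.16, 12.20 and 12.31 in chronic and 11.21, 11.14 and 11.30 in cycling hypoxia. It rose slightly under chronic hypoxia (0.32, SE 0.09, adjusted p = 0.0144) and fell 1.61-fold under cycling hypoxia (-0.69, SE 0.09, adjusted p = 0.000685). In SK-OV-3 cells control arrays read 8.25, 8.51 and 8.51, chronic hypoxia arrays 8.57, 9.06 and 8.49 and cycling hypoxia arrays 10.00, 9.85 and 9.70. Control and chronic hypoxia overlapped (0.28, SE 0.16, adjusted p = 0.212), and cycling hypoxia stood 2.69-fold above control (1.43, SE 0.16, adjusted p = 0.000801). WM793B arrays ranged from 10.42 to 11.18, and both groups of hypoxic cells overlapped control. All cycling hypoxia arrays of this line lay above the chronic hypoxia arrays, but the difference was not called (0.30, SE 0.17, adjusted p = 0.267). Of the 2 other probe sets, both moved like the brightest under cycling hypoxia (by -0.56 and -0.62 for PC-3 arrays, by 1.63 and 1.73 for SK-OV-3 arrays), and 208893_s_at fell under chronic hypoxia in WM793B cells (-0.33, SE 0.08, adjusted p = 0.0152).

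For DUSP4, a nuclear phosphatase that like DUSP6 is induced by ERK, the direction under chronic hypoxia in PC-3 cells depended on the probe set. The brightest, 204014_at, read 12.71, 12.75 and 12.93 in control, 11.91, 11.76 and 11.67 in chronic and 12.99, 12.99 and 12.98 in cycling hypoxia. It fell by 1.02 (SE 0.08, adjusted p = 2.43e-05) under chronic hypoxia, as did 226034_at, by 1.13 (SE 0.07, adjusted p = 1.29e-05). By contrast, 204015_s_at rose by 0.86 (SE 0.05, adjusted p = 5.26e-06), from 11.27, 11.22 and 11.35 to 12.12, 12.09 and 12.21. The cause was not tested. Under cycling hypoxia 204015_s_at and 226034_at rose by 0.40 and 0.33, and the brightest differed by 0.19 (SE 0.08, adjusted p = 0.08). The 3 cycling hypoxia values of 204014_at differed by less than 0.01, far less than in the other groups. In SK-OV-3 cells the brightest probe set rose from 7.49, 7.56 and 8.00 to 8.24, 8.09 and 8.11 under chronic hypoxia (0.46, SE 0.14, adjusted p = 0.0315), a call that held in 10 of 18 alternative settings. There 226034_at rose by 0.68 under chronic and 0.64 under cycling hypoxia, and 204015_s_at by 0.70 under cycling hypoxia. In WM793B cells DUSP4 was not called by any probe set (arrays of the brightest between 10.96 and 11.74). Under chronic hypoxia there, 204015_s_at lay 0.74 above control (SE 0.25, adjusted p = 0.0501) and 226034_at 0.26 below it (SE 0.09, adjusted p = 0.0588). Neither overlapped control, and the directions were those seen in PC-3 cells.

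**Figure D3:**
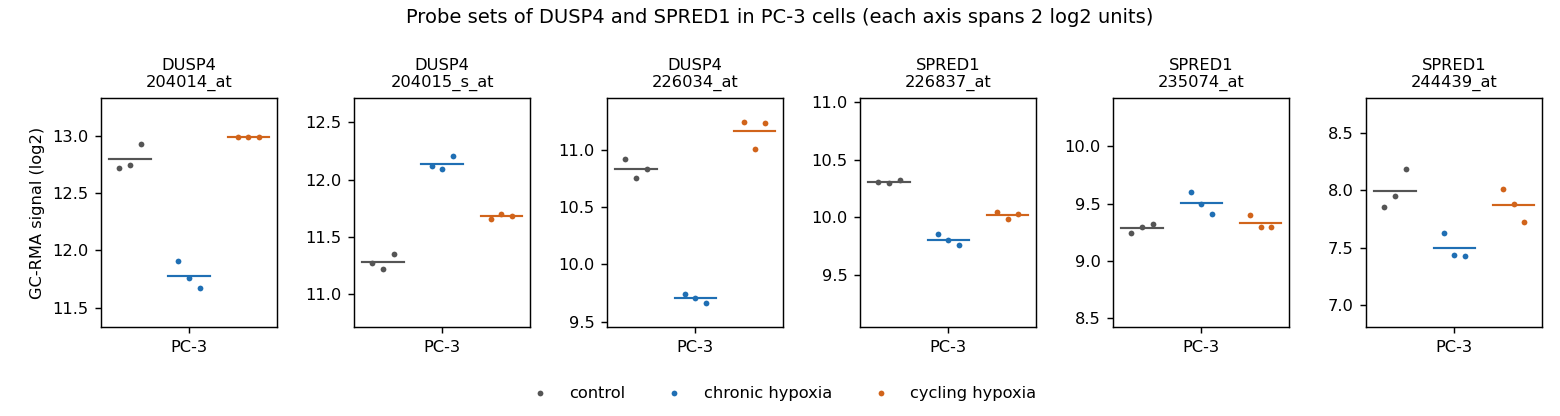
GC-RMA signal (log2) of the 3 probe sets of DUSP4 and the 3 of SPRED1 in PC-3 cells, points for arrays and bars for means of 3 per condition, each vertical axis spanning 2 log2 units. Under chronic hypoxia 204014_at and 226034_at lay below control and 204015_s_at above it.

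The Sprouty genes, whose products hold back RAS and RAF activation below growth factor receptors, did not move as a group. SPRY1 had the largest fall of the family: PC-3 arrays went from 8.71, 8.64 and 8.47 in control to 5.59, 4.89 and 6.01 in chronic hypoxia, with 6.81, 6.49 and 6.84 in cycling hypoxia. It fell 8.66-fold under chronic (-3.11, SE 0.27, adjusted p = 5.08e-05) and 3.72-fold under cycling hypoxia (-1.89, SE 0.27, adjusted p = 0.0012). In SK-OV-3 cells it rose instead, from 6.22, 6.03 and 6.06 to 7.67, 7.70 and 7.52 under chronic and 6.80, 6.88 and 7.30 under cycling hypoxia. These rises were 2.88-fold (1.53, SE 0.14, adjusted p = 0.000141) and 1.85-fold (0.89, SE 0.14, adjusted p = 0.00275). WM793B arrays read 7.51, 7.68 and 7.65 in control, 7.49, 7.38 and 8.74 in chronic and 6.81, 6.76 and 6.57 in cycling hypoxia. All cycling hypoxia arrays of this line lay below the others, but the difference from control (-0.90, SE 0.33, adjusted p = 0.112) was not called. Without chronic hypoxia replicate 3, which widened the common spread, the same difference had an SE of 0.08 and an adjusted p of 0.00231, and that of cycling from chronic hypoxia moved from -1.16 (adjusted p = 0.0591) to -0.73 (adjusted p = 0.00683). A dim second probe set, 230212_at, also fell in PC-3 cells (by 1.64 and 1.59).

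SPRY2 rose in PC-3 cells, from 9.43, 9.31 and 9.32 to 10.33, 10.19 and 10.54 under chronic and 10.53, 10.53 and 10.60 under cycling hypoxia. The groups of hypoxic cells overlapped each other and stood 2.00-fold and 2.30-fold above control. WM793B control arrays read 11.51, 11.22 and 11.47, chronic hypoxia arrays 11.80, 11.71 and 11.86 and cycling hypoxia arrays 11.68, 11.81 and 11.69. The differences from control were small, 0.39 (SE 0.09, adjusted p = 0.0112) and 0.32 (SE 0.09, adjusted p = 0.0454), and the call for cycling hypoxia held in only 6 of 18 alternative settings. In SK-OV-3 cells the arrays ranged from 7.31 to 7.82 with overlapping groups, and the 95% intervals of the log2 difference from control were -0.47 to 0.15 for chronic and -0.49 to 0.13 for cycling hypoxia.

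SPRY4, which is read as a target of ERK signalling in many cell types, fell in PC-3 cells to a similar level under both kinds of hypoxia. Control arrays read 9.73, 9.70 and 9.61, chronic hypoxia arrays 8.66, 8.64 and 8.72 and cycling hypoxia arrays 8.62, 8.57 and 8.61, falls of 2.01-fold and 2.11-fold. In SK-OV-3 cells only cycling hypoxia was called: control arrays read 5.52, 5.97 and 5.93, chronic hypoxia arrays 6.26, 5.52 and 5.49 and cycling hypoxia arrays 7.70, 7.43 and 7.60. The rise under cycling hypoxia was 3.40-fold against control (1.77, SE 0.23, adjusted p = 0.00135) and 3.53-fold against chronic hypoxia (1.82, SE 0.23, adjusted p = 0.0014). WM793B cells gave 10.78, 10.82 and 10.89 in control, 9.12, 9.08 and 9.94 in chronic and 10.54, 10.50 and 10.69 in cycling hypoxia. SPRY4 fell 2.73-fold there under chronic hypoxia (-1.45, SE 0.22, adjusted p = 0.00215; -1.73, SE 0.07, adjusted p = 9.11e-05 without replicate 3). Cycling hypoxia lay 0.25 below control (SE 0.22, adjusted p = 0.485), with no overlap of the arrays, and this was called without chronic hypoxia replicate 3 (SE 0.06, adjusted p = 0.0357).

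SPRED1 and SPRED2, which bind the RAS inhibitor neurofibromin and bring it to the membrane, were read differently by their probe sets. SPRED1 fell in PC-3 cells from 10.30, 10.29 and 10.32 to 9.85, 9.80 and 9.76 under chronic (-0.50, SE 0.03, adjusted p = 1.17e-05) and 10.04, 9.99 and 10.03 under cycling hypoxia (-0.29, SE 0.03, adjusted p = 0.000389). The second-brightest probe set, 235074_at, went the other way under chronic hypoxia, rising by 0.22 (SE 0.06, adjusted p = 0.0124), and the third, 244439_at, fell by 0.50. Under cycling hypoxia neither 235074_at (0.04, adjusted p = 0.598) nor 244439_at (-0.12, adjusted p = 0.417) was called in PC-3 cells. There the call of the brightest held in 16 of 18 alternative settings. It was lost in 1 fit of all 27 arrays (adjusted p = 0.0899) and with probe set means (adjusted p = 0.146). In SK-OV-3 cells 235074_at rose by 0.68 (adjusted p = 0.000537) while the brightest differed by 0.01, and in WM793B cells it fell by 0.36 (adjusted p = 0.0467) while the brightest differed by -0.04.

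SPRED2 was read by the dim probe set 212466_at, which fell in PC-3 cells by 0.69 under chronic and 0.67 under cycling hypoxia, from 5.25, 4.89 and 5.21 to values between 4.35 and 4.55. In SK-OV-3 cells the call of cycling over chronic hypoxia (1.07, SE 0.34, adjusted p = 0.0492) held in 7 of 18 alternative settings, and control replicate 1 read 4.35 beside 5.43 and 5.50. The brighter probe set 212458_at, tested without the filter, fell in PC-3 cells from 9.48, 9.25 and 9.27 to 8.25, 7.81 and 8.09 under chronic hypoxia (-1.28, SE 0.12, adjusted p = 0.000304) and by 0.91 under cycling hypoxia. It also fell in WM793B cells under chronic hypoxia, from 9.02, 8.84 and 8.92 to 8.41, 8.38 and 8.45 (-0.51, SE 0.09, adjusted p = 0.0127), where the filtered probe set differed by -0.10. In SK-OV-3 cells 212458_at differed by 0.22 for cycling against chronic hypoxia (SE 0.06, adjusted p = 0.0645), not called. Against control it rose there by 0.27 under cycling hypoxia (SE 0.06, adjusted p = 0.0265), where the filtered probe set was not called (0.49, SE 0.34, adjusted p = 0.329).

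ERRFI1, which blocks the kinase domain of the EGF receptor, was the only member to rise under chronic hypoxia in all 3 lines. PC-3 arrays read 12.25, 11.85 and 12.23 in control, 13.95, 14.05 and 13.95 in chronic and 13.67, 13.68 and 13.74 in cycling hypoxia. The rises were 3.66-fold (1.87, SE 0.11, adjusted p = 6.99e-06) and 3.00-fold (1.58, SE 0.11, adjusted p = 4.22e-05). SK-OV-3 arrays rose stepwise from 10.23, 10.24 and 10.37 in control to 11.10, 11.02 and 11.07 in chronic and 11.82, 11.84 and 11.65 in cycling hypoxia, with no overlap between any groups. Cycling hypoxia was 0.71 above chronic hypoxia there (SE 0.07, adjusted p = 0.000496). In WM793B cells control arrays read 10.50, 10.60 and 10.96, chronic hypoxia arrays 11.54, 11.37 and 11.71 and cycling hypoxia arrays 10.78, 10.87 and 11.11. It rose 1.80-fold under chronic hypoxia (0.85, SE 0.15, adjusted p = 0.00431) and overlapped control under cycling hypoxia (0.23, SE 0.15, adjusted p = 0.341). The difference of cycling from chronic hypoxia (-0.62, SE 0.15, adjusted p = 0.0372) held in 11 of 18 alternative settings (adjusted p = 0.0761 without chronic hypoxia replicate 3). ERRFI1 is represented by a single probe set.

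The responses themselves were compared between the lines in 1 fit of all 27 arrays. The response to chronic hypoxia differed between the lines for 9 of the 10 members, all but SPRED2 (70.7% of all genes), that to cycling hypoxia for 8, all but DUSP4 and SPRED1 (52.1% of all genes), and the difference of cycling from chronic hypoxia for 8, all but SPRY2 and SPRED1 (43.3% of all genes). These counts read the brightest probe set: for cycling hypoxia both other DUSP4 probe sets were called (adjusted p = 0.0162 and 0.00916), as was 235074_at of SPRED1 for cycling against chronic hypoxia (adjusted p = 0.00169). The largest gap under chronic hypoxia was that of SPRY1, 4.64 (SE 0.37, log2) between SK-OV-3 and PC-3 cells, followed by that of DUSP5, -4.49 (SE 0.27). For ERRFI1 the responses of SK-OV-3 and WM793B cells to chronic hypoxia were not told apart (-0.07, SE 0.18, adjusted p = 0.794), both lying about 1 log2 unit below that of PC-3 cells (-1.09 and -1.02).

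Other genes of the pathway came from 6 lists with 60 genes, of which 43 had a probe set that passed the filter. Under chronic hypoxia 19 rose and 8 fell in PC-3, 18 rose and 7 fell in SK-OV-3 and 7 rose and 5 fell in WM793B cells. Among all genes, the shares rising and falling were 24.9% and 38.8% for PC-3, 24.2% and 25.0% for SK-OV-3 and 17.8% and 23.9% for WM793B cells. Under cycling hypoxia 18 rose and 6 fell in PC-3, 21 rose and 2 fell in SK-OV-3 and 5 rose and 3 fell in WM793B cells. The shares of all genes were 22.8% and 25.4%, 19.2% and 15.8%, and 9.57% and 9.21%. CBLB, a ubiquitin ligase that takes down activated receptors, rose under both kinds of hypoxia in every line (by 1.64 and 1.45 for PC-3, 0.67 and 0.66 for SK-OV-3, 1.34 and 0.61 for WM793B). Among 5 other MAP kinase phosphatases, DUSP10, which prefers JNK and p38, rose by 1.69 and 0.94 in PC-3 cells and by 0.96 under cycling hypoxia in SK-OV-3. MRAS, a RAS relative, fell in PC-3 under chronic and cycling hypoxia (-1.57 and -1.29) and WM793B cells (-1.32 and -0.54) and under cycling hypoxia in SK-OV-3 cells (-0.56).

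Among the 12 ERK-induced transcription factors and targets, 10 rose and none fell under cycling hypoxia in SK-OV-3 cells, with a median log2 difference of 0.93, beside 8 rising and 1 falling under chronic hypoxia (median 0.80). The medians over all genes in these comparisons were 0.01 and 0.00, and the shares of all genes called are those given above. The list was chosen with earlier results of these data known. It includes EPHA2, which the study had picked from these arrays, so the counts are a description. In PC-3 cells 5 rose and 4 fell under chronic and 4 rose and 2 fell under cycling hypoxia. In WM793B cells 1 of the 12, PHLDA1, rose under chronic hypoxia, and 1, MYC, fell under cycling hypoxia. ETV5, a transcription factor whose transcript is induced by ERK, moved in SK-OV-3 cells from 7.37, 7.17 and 7.35 in control to 7.15, 6.81 and 6.86 in chronic hypoxia (-0.35, SE 0.11, adjusted p = 0.0405) and to 7.91, 7.64 and 7.73 in cycling hypoxia (0.46, SE 0.11, adjusted p = 0.0204). FOSL1, a partner of JUN in AP-1, rose by 1.37 and 2.33 in SK-OV-3 cells under chronic and cycling hypoxia. EPHA2, a receptor kinase induced through ERK, rose by 0.84 and 2.13. By the study's qRT-PCR, EPHA2 rose about equally under both kinds of hypoxia in SK-OV-3 cells. FOS rose by 1.88 and 2.10 in PC-3 and 2.18 and 2.75 in SK-OV-3 cells.

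The growth factor list held the widest swing in SK-OV-3 cells. EREG, a ligand of the EGF receptor, read 6.57, 6.52 and 6.94 in control, 3.39, 3.10 and 2.55 in chronic and 7.99, 7.80 and 7.55 in cycling hypoxia. It fell 3.66 log2 units under chronic hypoxia (SE 0.23, adjusted p = 2.94e-05) toward the floor, and cycling hypoxia lay 4.77 above chronic hypoxia (SE 0.23, adjusted p = 4.64e-05). DUSP5 was likewise lowest under chronic hypoxia in this line, but its cycling hypoxia arrays overlapped control. HBEGF, another such ligand, read 4.60, 4.70 and 4.73 in control, 4.76, 4.67 and 4.29 in chronic and 6.79, 6.94 and 6.58 in cycling hypoxia, with only cycling hypoxia called (2.09 above control). The study had picked EREG and HBEGF from these SK-OV-3 arrays as responsive to cycling hypoxia, so their patterns are a description. The study's qRT-PCR gave a rise of HBEGF in SK-OV-3 cells under both kinds of hypoxia, smaller under chronic hypoxia. In PC-3 cells HBEGF rose under both on the arrays (1.25 and 1.59), whereas the study's qRT-PCR gave a rise under chronic hypoxia only. TGFA was higher under chronic than under cycling hypoxia in SK-OV-3 (2.22 and 0.93 above control) and rose under chronic hypoxia in WM793B cells (1.71, SE 0.27, adjusted p = 0.00272). EREG was at or below 3.01 on every PC-3 and WM793B array. Whether these ligands had a part in the members' changes was not tested.

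**Figure D4:**
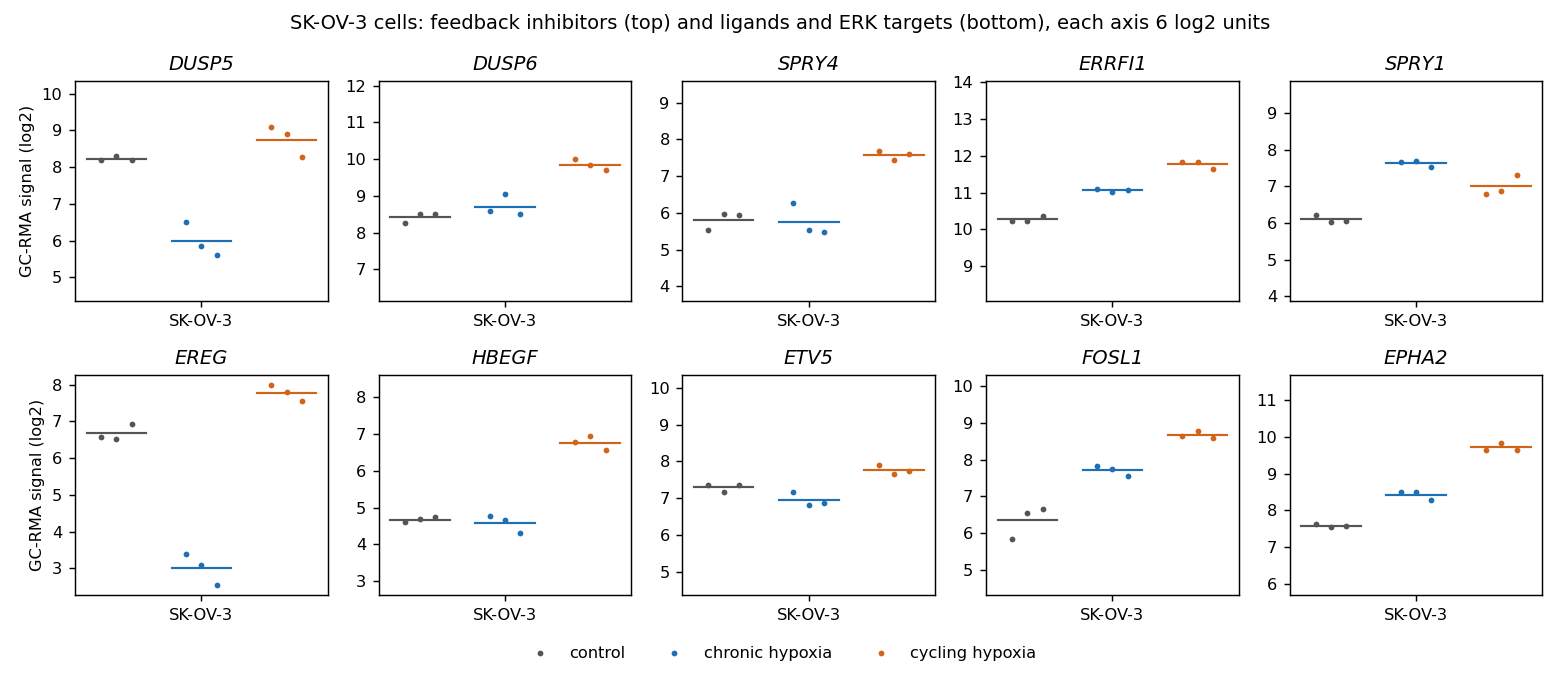
GC-RMA signal (log2) in SK-OV-3 cells for 5 members (top) and for ligands and targets of the pathway (bottom), points for arrays and bars for means of 3 per condition, each vertical axis spanning 6 log2 units. DUSP5 and EREG fell under chronic hypoxia, and SPRY1 stood highest there. DUSP6, SPRY4 and HBEGF were called higher than control under cycling hypoxia and were not called under chronic hypoxia.

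The genes with the most similar pattern were sought over the 6 log2 differences from control (2 kinds of hypoxia in 3 lines), by the root mean square difference from each member among 9192 genes. The differences of a line share its control arrays, so this is a description. Nearest to ERRFI1 were TMEM158 (0.27) and ZFP36 (0.28), nearest to DUSP6 was BATF3 (0.29), to SPRY4 LRRC8B (0.40), to DUSP5 SESN2 (0.43), to SPRY1 BST2 (0.46) and to DUSP1 CXCL8 (0.60) and DDIT4 (0.61). No member was the nearest gene of another. The member nearest to DUSP1 was ERRFI1, at rank 25 among all genes (0.94), and the member nearest to SPRY4 was DUSP6, at rank 343 (0.78).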

How the data were processed

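RNA from 27 cultures was hybridised to Affymetrix U133 Plus 2.0 arrays. The authors' deposited values are log2 signals per probe set from GC-RMA, a method that corrects background by probe sequence, applies quantile normalization and summarises probes. Quantile normalization removes shifts common to all genes, so differences are relative to the other genes. Of 54675 probe sets, 41097 carried 1 gene symbol, 1801 several and 11777 none, and symbols were updated through the annotation tables. No pair of arrays held identical values.

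Probe sets that varied at least 1.5-fold from their median in at least 20% of arrays were kept, 19800 in all, of which 17314 carried 1 symbol, for 10021 genes. Each cell line's 9 arrays were fitted in limma 3.58.1 (R 4.3.3) with lmFit, contrasts and eBayes. P values were adjusted by Benjamini-Hochberg over all filtered probe sets, and a gene was called under 0.05. Differences between lines and control levels came from 1 fit of all 27 arrays. SE is limma's moderated standard error. The fit was tested on simulated data before use. A gene was read by its brightest filtered probe set. All 10 members are named, other pathway genes are named by the largest differences from control (at most 3 a line) or where members' results are set beside them, and 2 genes of like pattern were sought per member; PHLDA1 and MYC are named because each was the only gene of its count, after their values were seen. The members and lists were chosen with earlier results of these data known. The mark of 5 for dim signals took its number from the noise estimate in the study's text, which stands beside values on a linear scale, so on the log2 scale it is a mark and not a background level. Alternatives were the filter, dim probe sets, renormalization, median centring, 1 fit, an intensity trend, the replicate block, only the arrays compared, probe set means and each array left out.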

Additional observations from a re-analysis of the deposited data

Results flagged for a closer look

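The response differed between the 3 cell lines, by limma's F test in 1 fit of all 27 arrays with adjustment over all filtered probe sets, in 25 of 30 comparisons of the members. Of all genes, 70.7% were called for chronic hypoxia against control, 52.1% for cycling hypoxia against control and 43.3% for cycling against chronic hypoxia. Under chronic hypoxia against control the adjusted p was 3.92e-11 for DUSP5, 1.83e-09 for SPRY1, 1.41e-07 for DUSP1, 1.13e-05 for SPRY2, 1.48e-05 for ERRFI1, 2.31e-05 for DUSP4, 0.000334 for SPRY4, 0.0327 for SPRED1 and 0.0385 for DUSP6. Under cycling hypoxia against control it was 8.24e-08 for SPRY4, 2.83e-07 for DUSP6, 2.33e-06 for ERRFI1, 2.59e-06 for SPRY2, 5.65e-06 for DUSP1, 1.1e-05 for SPRY1, 0.000222 for DUSP5 and 0.00963 for SPRED2. For cycling against chronic hypoxia it was 2.83e-09 for DUSP5, 4.76e-07 for DUSP6, 1.34e-05 for ERRFI1, 3.65e-05 for SPRY4, 6.12e-05 for DUSP4, 7.22e-05 for SPRY1, 0.00165 for DUSP1 and 0.0103 for SPRED2. The directions were opposite, each past its own test, for DUSP5 and SPRY1 under chronic hypoxia (PC-3 against SK-OV-3 cells) and for DUSP6, SPRY1 and SPRY4 under cycling hypoxia. DUSP4 under chronic hypoxia was also called in opposite directions in these lines by its brightest probe set, and its probe sets disagreed in PC-3 cells. For cycling against chronic hypoxia, PC-3 and SK-OV-3 cells were called in opposite directions for DUSP1, DUSP5, DUSP6 and SPRY1. SK-OV-3 and WM793B cells were so for ERRFI1. The SK-OV-3 call of DUSP1 and the WM793B call of ERRFI1 held in 10 and 11 of 18 alternative settings.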

How the results depend on the processing

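Of 90 comparisons of a member in a line, 48 were called, and 38 of these kept call and direction under every setting tried. No called value changed sign in any setting. However, no setting read DUSP4 or SPRED1 by another single probe set. In PC-3 cells 1 other probe set of each gene went the opposite way, both under chronic hypoxia and for cycling against chronic hypoxia. Counts of called members moved by over 1.5 times only in WM793B cells. For cycling hypoxia against control there the count was 1, and it was 0 without the variation filter, 0 with dim probe sets left out (no mean above 5), 2 in 1 fit of all 27 arrays, and 0 to 3 when 1 array was left out (3 without chronic hypoxia replicate 3, 0 without any other). For cycling against chronic hypoxia the count was 2, and it was 1 without the filter, 1 with only the 6 arrays compared, and 1 to 2 when 1 array was left out. With the replicate block the first of these counts was 0. Deviations of arrays with the same replicate number correlated only weakly, between -0.09 and 0.29, and over 0.1 in 6 of 27 pairs. By line, the correlation exceeded 0.1 in 4 of 9 pairs for WM793B (range -0.02 to 0.29). It did so in 1 of 9 for SK-OV-3 (-0.09 to 0.16) and 1 of 9 for PC-3 (-0.05 to 0.15). Whether replicate numbers paired the WM793B arrays was not tested beyond these correlations. The block also ended the calls of DUSP1 (adjusted p = 0.0553) and SPRED2 (0.0843) in SK-OV-3 cells for cycling against chronic hypoxia and of SPRY2 for cycling hypoxia in WM793B cells (0.0717), and no other. The cause of these changes was not tested. Leaving out 1 array moved the other counts of called members, 3 to 10, by at most 2. The number of arrays, 3 a group, limits the precision of each difference.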
